A study of Homo sapiens with 6 samples.

Results

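Lysine acetyltransferases of histones were followed in HEK293T cells treated with valproic acid (VPA), as a list of 10 named genes out of 47470 listed in the count files. The list holds EP300 and CREBBP, the GCN5 and PCAF genes KAT2A and KAT2B, the MYST family genes KAT5, KAT6A, KAT6B, KAT7 and KAT8, and the type B enzyme HAT1. HEK293T is an established line from human embryonic kidney with the large T antigen of SV40. RNA came from 3 libraries of cells that received no agent and from 3 libraries of cells kept for 1 day in 1 mM VPA. All were of the same line, with neither a further modification of it nor a vehicle control named in the labels. The labels do not say whether replicates were separate cultures, so p-values measure the spread between these libraries, which may be technical.

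Acetyltransferases move an acetyl group from acetyl-CoA to lysines of histone tails, and histone deacetylases take it off again. VPA inhibits deacetylases, which leaves the acetyltransferases as the other arm of the same balance. EP300 and CREBBP encode p300 and CBP, the coactivators that place H3K27ac at enhancers and promoters. KAT2A and KAT2B encode the exchangeable catalytic subunits of the SAGA and ATAC coactivator complexes, and the MYST enzymes work in multi-subunit complexes, some of whose subunits they share. HAT1 acts on newly made histone H4 before it is placed on DNA.

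Counts on genes totalled 18622267 to 18828495 per library. Of 9 markers set for the kidney origin and the HEK293 line, 8 had at least 10 counts in every library, and PAX8 did not. Their summed level was 9057 to 9322 normalized counts in untreated and 13015 to 13893 in VPA-treated libraries. The sum of 5 blood markers was 43.3 to 64.0 normalized counts in all 6 libraries, and that of 4 endothelial markers went from 10.3 to 20.9 up to 136 to 169. The sum of 5 stromal markers went from 437 to 495 up to 1499 to 1666, and that of 5 mature tubule markers, with UMOD at 0, from 858 to 1002 up to 1485 to 1509. The sum of 4 pluripotency markers was at most 1.05, with NANOG and DPPA4 at 0. The part of these changes in the results was not tested.

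All 10 acetyltransferase genes passed the filter on low counts, and all 10 were lower in VPA-treated cells at an adjusted p under 0.05 in edgeR's quasi-likelihood test with TMM scaling, of which EP300, KAT2B, KAT6A, KAT8 and HAT1 did not pass when the libraries were scaled to their ribosomal protein genes. Among all 15298 genes tested, 30.0% were lower by this rule and 32.9% were higher. The decreases were moderate, with log2 fold changes between -0.86 and -0.21 and a median of -0.39, against a median of 0.0058 over all tested genes. None reached the fold change threshold used by the study to call a differentially expressed gene (DEG), which asks for a log2 fold change of 1 or more in either direction. By that rule 0.503% of all tested genes were down-regulated and 12.0% up-regulated. In each of the 10 genes every VPA-treated library lay below every untreated library, and 31.0% of all tested genes separated in this direction. Well-counted genes were lower more often than genes in general. Among the 7387 tested genes whose mean lay within the range of the 10 members, 400 to 5058 normalized counts, 44.8% were lower and the median log2 fold change was -0.094. Counts are relative within a library, and fewer transcripts per cell cannot be told apart from a larger pool of other transcripts. Nor can fewer cells that express a gene be told apart from less of its RNA per cell in such bulk samples.

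**Figure D1:**
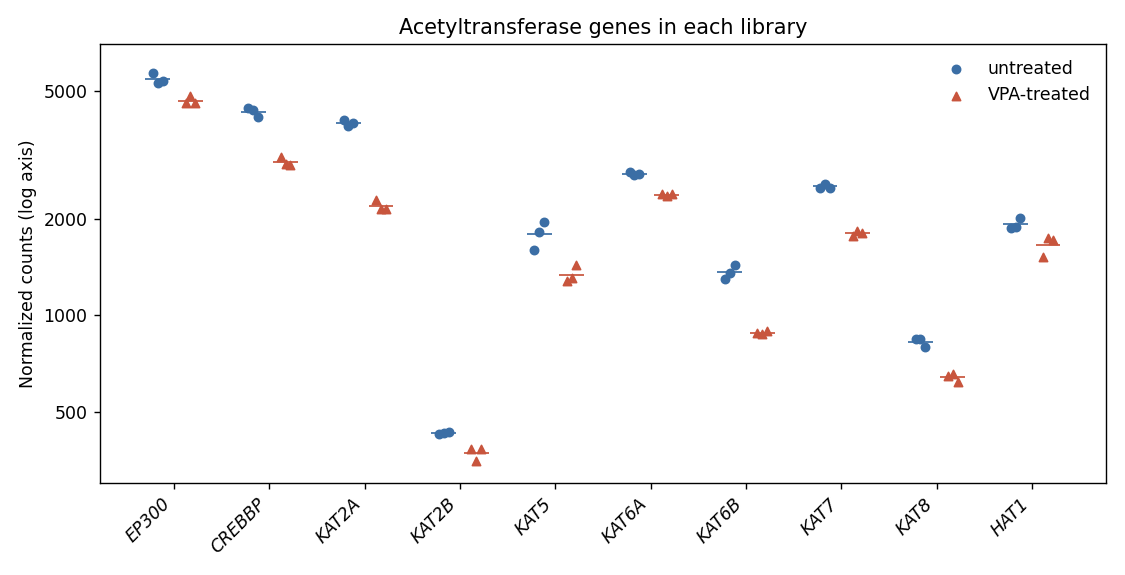
Normalized counts (log axis) of the 10 acetyltransferase genes in each library, with circles for untreated and triangles for VPA-treated libraries (3 each) and lines at the group means. With this TMM scaling the 3 triangles lie below the 3 circles in every gene, with the widest gap in KAT2A.

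**Figure D2:**
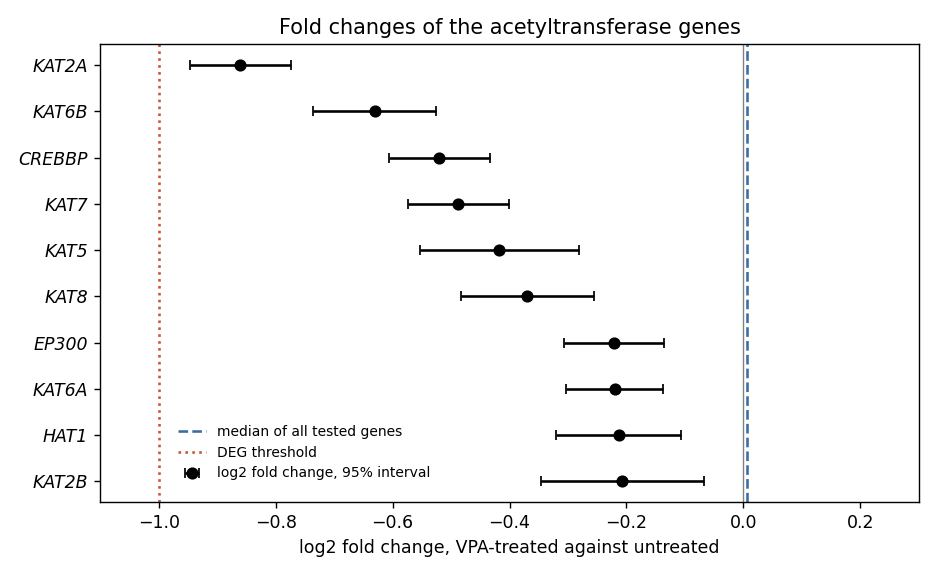
Log2 fold change of each gene, VPA-treated against untreated, with 95% intervals from the edgeR fit, with TMM scaling, sorted from KAT2A at -0.86 to KAT2B at -0.21. The dashed line is the median of all tested genes and the dotted line the DEG threshold of -1, which no interval reaches.

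KAT2A showed the largest decrease of the list. KAT2A, on chromosome 17 (42113111 to 42121367, minus strand), encodes GCN5, an acetyltransferase of H3K9. It had 4072, 3884 and 3966 normalized counts in untreated and 2278, 2142 and 2147 in VPA-treated libraries. The groups were far apart, with 3974 ± 94.4 against 2189 ± 77.0 normalized counts (SD, n = 3 each). In edgeR KAT2A changed by -0.86 ± 0.042 (SE) on the log2 scale at adjusted p = 1.27e-13, a level 44.9% lower. Only 141 of the 15298 tested genes had a lower log2 fold change.

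Its paralog KAT2B encodes PCAF, which takes the same place in these complexes. KAT2B lies on chromosome 3 (20040446 to 20154404, plus strand) and was the gene with the fewest counts, 2397 over the 6 libraries. It had 426, 429 and 432 normalized counts in untreated and 383, 349 and 383 in VPA-treated libraries. The 3 untreated values were close together and the VPA-treated ones lay just under them, with VPA replicate 2 the lowest. On the log2 scale KAT2B differed by -0.21 ± 0.067 (SE) between conditions, adjusted p = 0.010 in edgeR. Without VPA replicate 2 it was -0.17 with an adjusted p of 0.066 in edgeR. With all libraries it did not pass under upper quartile, library totals or ribosomal protein scaling either (adjusted p = 0.075, 0.34 and 0.70 in edgeR). The call thus depended on that library and on the scaling.

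The ratio of the paralogs within a library does not depend on how the libraries are scaled. KAT2B had 0.105, 0.110 and 0.109 counts per KAT2A count in untreated and 0.168, 0.163 and 0.178 in VPA-treated libraries. The groups did not overlap, and the log2 ratio went from -3.21 ± 0.040 to -2.56 ± 0.065 (SD, n = 3 each), 1.57-fold higher under VPA. The exact permutation test over libraries (two-sided) gave p = 0.1, and 3 against 3 libraries cannot give a smaller value. The same p came out for the other 2 pairs compared, and it was 0.1 after adjustment over the 3 pairs.

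The genes of p300 and CBP were both lower with TMM scaling, EP300 not passing with library totals or ribosomal protein scaling. CREBBP, on chromosome 16 (3725054 to 3880713, minus strand), had 4413, 4363 and 4138 normalized counts in untreated and 3111, 2960 and 2933 in VPA-treated libraries. Both groups were tight, and every VPA-treated value lay far under every untreated one. In edgeR the difference was -0.52 ± 0.042 (SE) on the log2 scale, adjusted p = 5.23e-10, a level 30.3% lower.

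EP300, on chromosome 22 (41092592 to 41180077, plus strand), was the most counted gene of the list, with 30276 counts over the 6 libraries. It had 5678, 5298 and 5359 normalized counts in untreated and 4586, 4841 and 4583 in VPA-treated libraries. The groups were separate but closer than those of CREBBP. In edgeR EP300 changed by -0.22 ± 0.041 (SE) on the log2 scale at adjusted p = 8.30e-05, a level 14.2% lower. EP300 had 1.29, 1.21 and 1.30 counts per CREBBP count in untreated and 1.47, 1.64 and 1.56 in VPA-treated libraries. The log2 ratio was 0.34 ± 0.051 in untreated and 0.64 ± 0.075 in VPA-treated libraries (SD, n = 3 each), a ratio 1.23-fold higher without overlap of the groups.

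EP300-AS1, a long non-coding RNA gene on the opposite strand that overlaps EP300 in GENCODE and lies beyond its end in RefSeq, moved the other way. It had 64.1, 98.3 and 70.3 normalized counts in untreated and 119, 108 and 105 in VPA-treated libraries, so that its groups did not overlap either. On the log2 scale EP300-AS1 differed by 0.51 ± 0.14 (SE) between conditions, adjusted p = 0.0036 in edgeR. Its level was far below that of EP300, and without a stated strand setting reads of the shared stretch cannot be told apart.

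The sequences before the starts of these paralogs are shown because the fold changes of the 2 members of each pair lay apart. Each is the 250 bases before the RefSeq start on GRCh38.p14, 5′ to 3′ on the strand of the gene, with the GC box GGGCGG or its reverse complement CCGCCC in capitals. They are chr17:42121368-42121617 (minus strand) for KAT2A, chr3:20040196-20040445 (plus strand) for KAT2B, chr16:3880714-3880963 (minus strand) for CREBBP and chr22:41092342-41092591 (plus strand) for EP300.
KAT2A: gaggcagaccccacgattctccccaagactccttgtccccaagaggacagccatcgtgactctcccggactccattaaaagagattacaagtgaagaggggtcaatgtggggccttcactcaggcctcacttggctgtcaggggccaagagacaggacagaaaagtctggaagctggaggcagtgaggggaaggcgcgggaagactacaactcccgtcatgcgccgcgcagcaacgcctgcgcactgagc
KAT2B: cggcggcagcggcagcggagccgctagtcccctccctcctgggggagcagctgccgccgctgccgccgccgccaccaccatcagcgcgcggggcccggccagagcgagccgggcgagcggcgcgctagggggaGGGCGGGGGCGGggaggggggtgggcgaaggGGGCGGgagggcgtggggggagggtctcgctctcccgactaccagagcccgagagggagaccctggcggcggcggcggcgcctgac
CREBBP: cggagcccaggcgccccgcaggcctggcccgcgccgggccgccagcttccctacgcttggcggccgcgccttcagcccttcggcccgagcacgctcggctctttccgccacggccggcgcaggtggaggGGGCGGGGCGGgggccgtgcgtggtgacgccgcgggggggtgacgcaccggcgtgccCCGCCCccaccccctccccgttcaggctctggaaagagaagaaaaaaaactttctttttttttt
EP300: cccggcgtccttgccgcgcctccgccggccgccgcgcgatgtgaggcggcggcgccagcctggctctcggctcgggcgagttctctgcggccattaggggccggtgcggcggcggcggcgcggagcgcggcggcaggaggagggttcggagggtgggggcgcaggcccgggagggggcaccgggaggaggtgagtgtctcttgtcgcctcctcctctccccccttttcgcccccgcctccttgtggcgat
KAT2A had 11 CpG dinucleotides in this window, the median of the 35116 promoters in the table, and a GC content of 58.8%. KAT2B had 33 CpG dinucleotides and 80.8% GC, CREBBP 31 and 72.4% at the first of its 2 entries, and EP300 35 and 76.8%. The GC box occurred 3 times in KAT2B and 3 times in CREBBP, where 2 copies overlap, and did not occur in KAT2A or EP300. It was present in 42.6% of all promoters. The CRE core TGACG (reverse CGTCA) occurred once in KAT2A, 2 times in CREBBP and not in KAT2B or EP300, and was present in 21.2% of all promoters. Neither CCAAT (reverse ATTGG) nor TATAAA (reverse TTTATA) occurred in any of these 4 windows, against 32.0% and 10.7% of all promoters. At its second entry, chr16:3880121-3880370, which is not shown, CREBBP had 46 CpG dinucleotides, 84% GC, 4 GC boxes and no CRE core. Of the 10 genes 8 had an entry in the promoter table, KAT6A and KAT8 not, and 7 of the 8 had more CpG dinucleotides than the median. These matches are descriptions of the letters and name no binding.

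**Figure D3:**
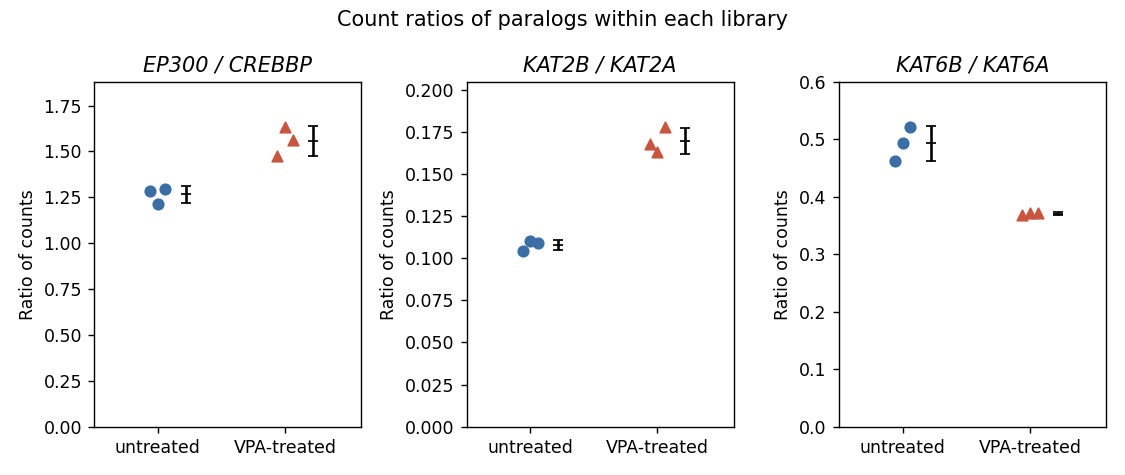
Ratio of raw counts of EP300 to CREBBP, KAT2B to KAT2A and KAT6B to KAT6A in each library, with points for libraries (3 per group) and bars for mean ± SD. The first 2 ratios are higher and the last is lower in all VPA-treated libraries.

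The MYST family is the largest group of the list, and all 5 of its members were lower with TMM scaling, KAT6A and KAT8 not passing with ribosomal protein scaling. KAT6B encodes MORF, which with its paralog MOZ, from KAT6A, acetylates H3 in complexes scaffolded by BRPF proteins. KAT6B, on chromosome 10 (74824936 to 75032624, plus strand), had 1295, 1356 and 1434 normalized counts in untreated and 876, 873 and 890 in VPA-treated libraries. The VPA-treated values were nearly equal and lay well under the untreated ones. In edgeR the difference was -0.63 ± 0.051 (SE) on the log2 scale, adjusted p = 5.64e-10, a level 35.4% lower.

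KAT6A, on chromosome 8 (41929479 to 42051987, minus strand), had a smaller fold change. It had 2803, 2743 and 2746 normalized counts in untreated and 2383, 2347 and 2390 in VPA-treated libraries. Both groups were tight, and edgeR gave -0.22 ± 0.040 (SE) on the log2 scale, adjusted p = 5.75e-05. KAT6B had 0.462, 0.494 and 0.522 counts per KAT6A count in untreated and 0.368, 0.372 and 0.372 in VPA-treated libraries. The log2 ratio went from -1.02 ± 0.088 to -1.43 ± 0.010 (SD, n = 3 each), a ratio 0.753 times that of untreated cells.

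KAT7 encodes HBO1, an acetyltransferase of H3 and H4 that acts at replication origins and promoters. It lies on chromosome 17 (49788681 to 49835026, plus strand) and had 2494, 2572 and 2493 normalized counts in untreated and 1764, 1829 and 1798 in VPA-treated libraries. The groups were well apart, with a difference of -0.49 ± 0.042 (SE) on the log2 scale, adjusted p = 1.55e-09 in edgeR. FAM117A, which overlaps it on the other strand, had 494 and 492 normalized counts in the group means.

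KAT5 encodes TIP60, the catalytic subunit of the human NuA4 complex, which acetylates H4 and H2A and takes part in DNA repair. It lies on chromosome 11 (65712018 to 65719604, plus strand) and had 1593, 1810 and 1953 normalized counts in untreated and 1277, 1303 and 1429 in VPA-treated libraries. The untreated libraries were spread the most for their level of all 10 genes, and untreated replicate 1 came nearest to the VPA-treated values. In edgeR KAT5 changed by -0.42 ± 0.064 (SE) on the log2 scale at adjusted p = 2.35e-05, and leaving out each library gave -0.50 to -0.35. RNASEH2C overlaps KAT5 on the other strand and had group means of 2116 and 1868 normalized counts, a log2 fold change of -0.18 (adjusted p = 0.0032 in edgeR).

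KAT8 encodes MOF, the enzyme of H4K16 acetylation. It lies on chromosome 16 (31117664 to 31131393, plus strand) and had 842, 845 and 794 normalized counts in untreated and 646, 655 and 619 in VPA-treated libraries. The groups were separate, with a difference of -0.37 ± 0.055 (SE) on the log2 scale, adjusted p = 5.11e-06 in edgeR.

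HAT1, on chromosome 2 (171922461 to 171983686, plus strand), had 1868, 1881 and 2008 normalized counts in untreated and 1520, 1736 and 1710 in VPA-treated libraries. VPA replicate 1 was the lowest, and without it the log2 fold change went from -0.21 to -0.16. The standard error with all libraries was 0.051 and the adjusted p 0.0011 in edgeR. SLC25A12, on the other strand, had a log2 fold change of 0.065 (adjusted p = 0.35 in edgeR).

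Levels of the 10 genes can be compared with each other per kilobase of transcript. With the length of the MANE Select transcript, KAT2A had the highest level in untreated cells, 1276 ± 30.3 normalized counts per kilobase, followed by HAT1 with 1175 ± 47.4 (SD, n = 3 each). KAT5 followed with 858, EP300 with 620, KAT8 with 553, CREBBP with 399, KAT6A with 302, KAT7 with 265 and KAT6B with 164 normalized counts per kilobase, with SDs of up to 87.1 in KAT5. KAT2B was the lowest with 97.3 normalized counts per kilobase. In VPA-treated cells HAT1 was first with 1013 ± 72.1 and KAT2A next with 703 ± 24.7 normalized counts per kilobase (SD, n = 3 each), and the other 8 genes kept their places. In both groups no neighbours in this order overlapped in their ranges over libraries, with KAT2A and KAT5 nearest to each other under VPA, at a lowest value of 687.8 and a highest of 687.1. The order depends on the length used. With all exons joined KAT2A stayed first in untreated cells, HAT1 came after KAT5 and EP300, and KAT6B was the lowest.

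The scaling of the libraries moved all fold changes together. Taken over all tested genes the median log2 fold change stood at 0.0058 for TMM and -0.0081 for DESeq2 size factors. It stood at 0.071 for upper quartile, 0.14 for library totals and 0.25 for scaling to ribosomal protein genes. The share of higher genes among all genes past the adjusted p was 52.3% under TMM, 50.3% under DESeq2 size factors, 63.0% under upper quartile, 73.9% under library totals and 89.3% under ribosomal protein scaling. Of the 10 members, 9 were lower under upper quartile (not KAT2B), 6 under library totals (not EP300, KAT2B, KAT6A or HAT1) and 5 under ribosomal protein scaling, and none was higher at an adjusted p under 0.05 in edgeR. Among all 15298 tested genes 3413, 2372 and 1017 were lower under these scalings. KAT2A, KAT6B, CREBBP, KAT7 and KAT5 were lower under the main setting and all 14 alternatives to it. All 10 were below the median of all tested genes with TMM. Set against that median, the members ran from -0.87 to -0.21 on the log2 scale with TMM. A scaling shifts all genes by about the same amount, so this distance hardly depends on it by construction.

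**Figure D4:**
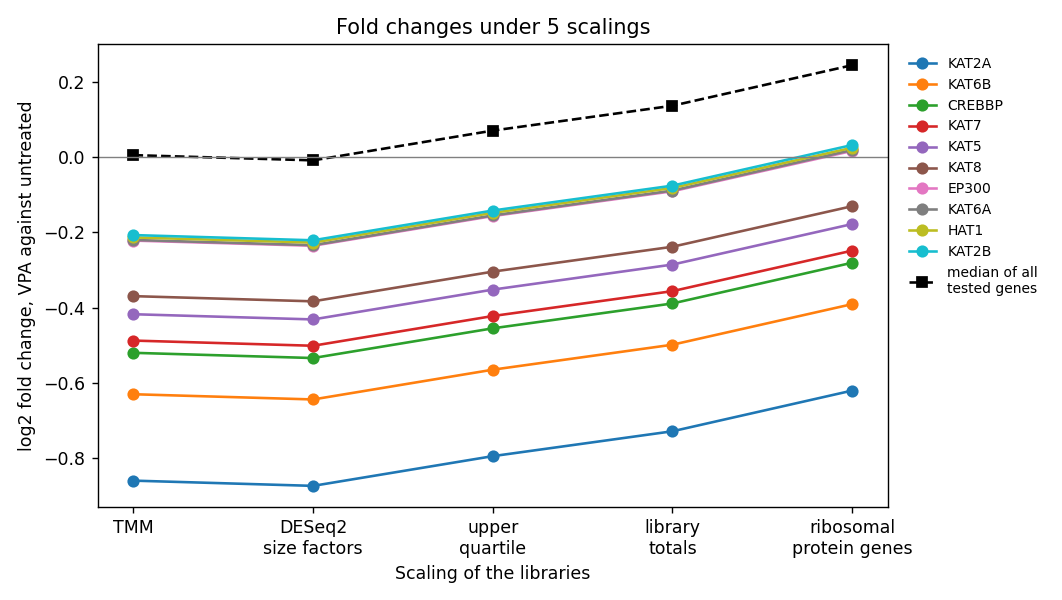
Log2 fold change of each gene, VPA-treated against untreated, under 5 scalings of the libraries, with the dashed line for the median of all tested genes. The lines run in parallel, as a scaling shifts all genes by about the same amount, and EP300, KAT2B, KAT6A and HAT1 lie just above 0 with ribosomal protein scaling.

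Most genes of acetyltransferase complexes and partners were lower as well with TMM scaling. Of 102 such genes in 8 lists, 92 were tested and the other 10, all on chromosomes X or Y, are listed at 0 in every library. These 10 are left out of the counts below, among them HCFC1, OGT and MSL3 of the MSL and NSL complexes. Their zeros cannot be read as absent expression, as no source says how genes of these chromosomes were counted. With TMM scaling 63 of the 92 were lower and 6 higher at an adjusted p under 0.05 in edgeR, which is 68.5% and 6.52%, against 30.0% and 32.9% of all tested genes. Of the 7387 tested genes in the count range of the 10 members, 44.8% were lower. The median log2 fold change of the 92 was -0.20, against -0.094 in that range. With library totals 39 were lower and 15 higher, against 2372 lower and 6713 higher of all 15298 tested genes. With ribosomal protein scaling 18 were lower and 28 higher, against 1017 lower and 8455 higher of all tested genes. The balance of the 92 turned with that scaling, which moved all genes up. These counts of all genes stand beside each list below as well. Set against the median of all tested genes, their median was -0.20 with TMM, a distance that a change of scaling leaves nearly as it is by construction. The 29 named below were chosen by the smallest p or the fold change with TMM. Their passing elsewhere is therefore no test of the lists. Of these 29, 21 passed in the same direction with ribosomal protein scaling and none changed sign there. BRD1, BRD8, CHAF1B, MCM3AP, NAA60, POLE3, RBBP4 and USP22 did not pass with it.

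Of 22 subunits of SAGA, the coactivator complex around KAT2A or KAT2B, 17 were lower and none was higher with TMM, with a median log2 fold change of -0.23, against 2 lower and 3 higher with a median of 0.0095 on ribosomal protein genes. TAF6L and TAF5L, which encode TAF-like structural subunits, had -0.71 (adjusted p = 2.26e-09 in edgeR) and -0.35. USP22, the deubiquitinase of the complex, went from a mean of 10074 ± 447 to one of 8052 ± 288 normalized counts (SD, n = 3 each), or -0.32 on the log2 scale. Of 10 ATAC subunits 8 were lower and none higher with TMM, with a median of -0.34, against 2 lower and 2 higher with a median of -0.096 on ribosomal protein genes. ZZZ3, a histone reader of ATAC, had a log2 fold change of -0.49, WDR5, a scaffold shared with other complexes, -0.38, and the histone-fold subunit POLE3 -0.32.

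Of 16 tested subunits of the TIP60 complex around KAT5 12 were lower and none higher with TMM, with a median log2 fold change of -0.18, against 4 lower and 6 higher with a median of 0.063 on ribosomal protein genes. ING3, a reader of methylated H3, had the largest decrease, from a mean of 617 ± 17.2 to one of 382 ± 11.5 normalized counts (SD, n = 3 each), or -0.69 on the log2 scale (adjusted p = 2.87e-09 in edgeR). VPS72, an H2A.Z chaperone, had -0.48 and the bromodomain subunit BRD8 -0.33. Of 8 tested subunits of the MSL and NSL complexes around KAT8 7 were lower and none higher with TMM, with a median of -0.34, against 4 lower and 2 higher with a median of -0.10 on ribosomal protein genes. The lower genes with TMM included MCRS1 with -0.51, MSL1 with -0.45 and WDR5.

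The complexes of KAT6A, KAT6B and KAT7 held both directions. Of 8 tested subunits 6 were lower and 1 higher with TMM, with a median log2 fold change of -0.25. On library totals 4 were lower and 1 higher, and on ribosomal protein genes 2 were lower and 1 higher with a median of -0.0065. BRPF3 and BRD1, scaffolds of these enzymes, had -0.64 and -0.33, and the reader ING5 had -0.59. JADE2, another scaffold for KAT7, was up-regulated past the DEG threshold. It had 124, 130 and 143 normalized counts in untreated and 290, 274 and 311 in VPA-treated libraries. The groups were far apart, and the difference on the log2 scale was 1.14 ± 0.092 (SE), adjusted p = 6.28e-10 in edgeR.

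HAT1 works with histone chaperones and an importin. Of 7 tested genes of this group 6 were lower and 1 higher with TMM, with a median log2 fold change of -0.26. On library totals 4 were lower and 1 higher, and on ribosomal protein genes 1 was lower and 2 higher with a median of -0.016. IPO4, the importin that carries H3 and H4 into the nucleus, went from a mean of 6265 ± 116 to one of 3981 ± 253 normalized counts (SD, n = 3 each), or -0.65 on the log2 scale (adjusted p = 3.64e-11 in edgeR). The chaperone RBBP4 and the CAF-1 subunit CHAF1B each had -0.32. ASF1A, an H3-H4 chaperone, was the higher gene, with 0.14 (adjusted p = 0.027 in edgeR), and did not pass with DESeq2 (adjusted p = 0.21).

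Partners of p300 and CBP were divided, with 7 lower and 4 higher of 15 tested with TMM (3 lower and 7 higher on ribosomal protein genes). The 46.7% lower with TMM lies near the 44.8% among tested genes in the count range of the members. The share of higher genes was 26.7%, against 32.9% of all tested genes. The median log2 fold change of these partners was -0.049 with TMM. It turned to 0.016 under upper quartile, 0.082 on library totals and 0.19 on ribosomal protein genes. The CREB coactivator CRTC1 had -0.46, CITED2, which binds p300 and CBP, -0.42 and the nuclear receptor coactivator NCOA2 -0.42. The transcription factor genes MYB, EPAS1 and IRF3 were higher, with 1.16, 0.44 and 0.26. MYB was past the DEG threshold and had 90.0, 97.3 and 95.4 normalized counts in untreated and 211, 201 and 218 in VPA-treated libraries. All 3 VPA-treated values lay above the untreated ones (adjusted p = 2.37e-09 in edgeR).

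Of 15 tested genes of other acetyltransferases 7 were lower and 1 higher with TMM, with a median log2 fold change of -0.15. The 46.7% lower lies near the 44.8% among genes in the count range of the 10 members. On ribosomal protein genes the count turned to 1 lower and 7 higher, with a median of 0.090. NAT10, which acetylates cytidines of RNA, had -0.46 (adjusted p = 2.92e-09 in edgeR), the protein acetyltransferase NAA60 -0.30 and MCM3AP -0.25. NCOA3, the higher gene, had 0.16 (adjusted p = 0.014 in edgeR) and did not pass with DESeq2 (adjusted p = 0.11).

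**Figure D5:**
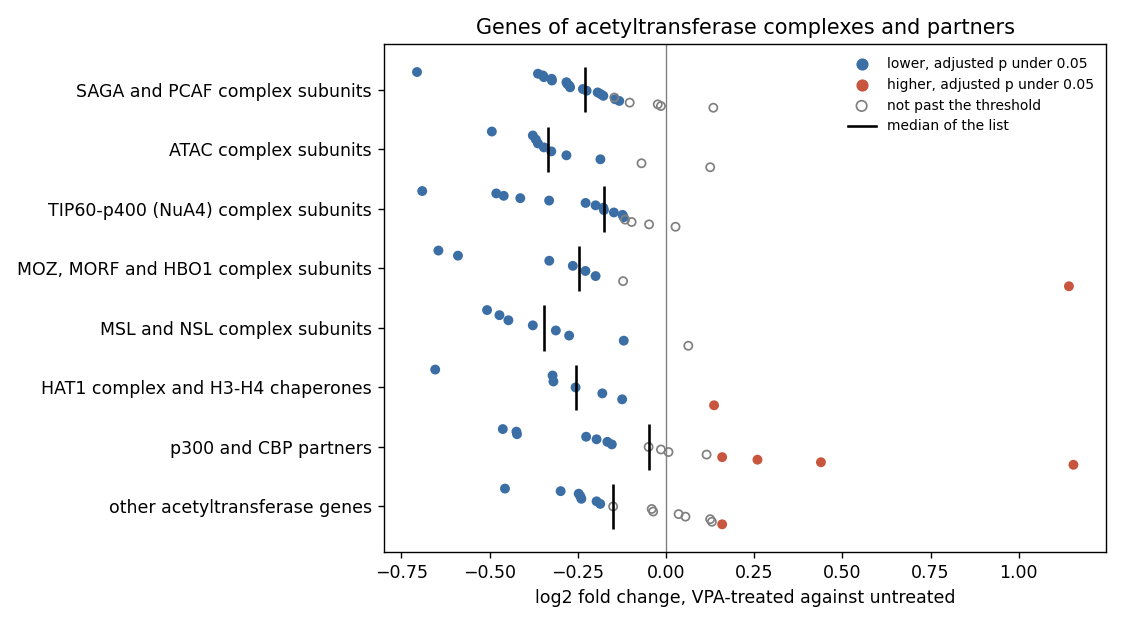
Log2 fold change, VPA-treated against untreated, of the tested genes in each list with TMM scaling, with blue for lower and red for higher genes at an adjusted p under 0.05, open circles for the others and a line at the median of the list. Most points lie to the left of 0, and JADE2 and MYB stand apart at the right with 1.14 and 1.16. With ribosomal protein scaling 18 were lower and 28 higher, against 1017 and 8455 of all tested genes.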

How the data were processed

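RNA was sequenced as paired-end reads from strand-specific mRNA libraries of HEK293T cells. Per the authors, SOAPnuke removed adapters and poor reads, STAR placed the rest on hg38, and htseq-count gave the count of each gene (STAR 2.7.10b and HTSeq 2.0.1 in the submitters' processing notes). The deposited values are these raw counts, not normalized. The paper's text gives another htseq-count version, and the annotation and the strand option used are not given in the sources used here. Reads with several places in the genome were set aside in the counting, and the 5 summary lines, which name no gene, were left out.

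Groups were taken from the sample titles. Counts were fitted with edgeR 4.0.16 in R 4.3.3 (TMM normalization, filterByExpr with a count minimum of 10, robust quasi-likelihood test, prior count 0.125, condition as the one term), with Benjamini-Hochberg adjustment over the 15298 genes tested. Standard errors (SE) were obtained by dividing the size of each log2 fold change by the square root of F. Normalized counts are counts divided by TMM effective library size, times the mean library size. Ratios of paralogs used raw counts within a library and an exact permutation test (scipy 1.17.1). The alternatives were DESeq2 1.42.0, 4 other scalings, 2 other filters, the replicate number as a block and each library left out. Levels per kilobase used the length of the MANE Select transcript in GENCODE 44, and all exons joined as a choice made after seeing the data. Coordinates and promoters are from RefSeq on GRCh38.p14. The gene names in the text are all 10 members, the 3 higher and the 3 lower genes of smallest p in each partner list, any gene past the fold change threshold there, and genes that overlap a member on the other strand. The members, lists and named genes were chosen with earlier results of these data known. Libraries of a group differed by more than sampling noise (chi-square per gene 1.62 to 4.80).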

Additional observations from a re-analysis of the deposited data

How the results depend on the processing

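The decrease of all 10 acetyltransferase genes held at an adjusted p under 0.05 with DESeq2, DESeq2 size factors, both filters and the replicate block. Library totals left 6 lower and ribosomal protein scaling 5, against 2372 and 1017 of all 15298 tested genes. With each library left out in turn it was 9 to 10 lower and 0 higher, with 0 past both thresholds. EP300, KAT2B, KAT6A and HAT1 had log2 fold changes of 0.017, 0.033, 0.020 and 0.025 with ribosomal protein scaling, none past the threshold (adjusted p = 0.75, 0.70, 0.70 and 0.68 in edgeR). Of 140 comparisons of single members with an alternative, 129 were on the same side of the threshold, 7 were weaker and 4 changed sign. Partner genes numbered 10 higher with upper quartile, 15 higher and 39 lower on library totals, and 28 higher and 18 lower with ribosomal protein scaling. Of all tested genes 5810, 6713 and 8455 were higher with these scalings, and their median lies at 0.25 with the last. With each library left out 4 to 7 were higher, 57 to 65 lower and 2 past both thresholds. The log2 difference of the paralog ratios was 0.26 to 0.34 for EP300 to CREBBP, 0.62 to 0.68 for KAT2B to KAT2A and -0.46 to -0.37 for KAT6B to KAT6A with each library left out, and no p under 0.1 was possible. The replicate block gave 10 acetyltransferase genes lower, with 67 partner genes lower and 8 higher, and changed no call of the 10 genes. Over all genes it gave 5357 higher and 5100 lower, against 5037 and 4591 without it. Libraries with the same number correlated in their deviations with r of 0.14, 0.021 and 0.080, against -0.107 to 0.031 for different numbers. Untreated replicate 2 correlated best with VPA replicate 3, and the other 5 libraries each with the one of their own number. Not every pair was over 0.1, and no label says what a number stands for, so the libraries were not treated as paired; whether they share a source was not settled. Standard errors of the 10 log2 fold changes were 0.040 to 0.067 at this depth, widest in KAT2B.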
